A study of Macaca mulatta with 32 samples.

Results

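The circRNAs of 5 diacylglycerol kinase host genes, DGKI, DGKB, DGKG, DGKH and DGKD, were described across 8 regions of the rhesus macaque brain. Members were all circRNAs of the deposited table that carry 1 of these 5 gene symbols, which gave 149 of 52828 circRNAs: 80 from DGKI, 39 from DGKB, 18 from DGKG, 8 from DGKD and 4 from DGKH. The group was chosen by a measured value, the number of different circRNAs per host, which is higher in DGKI than in any other of the 8047 host symbols, so this number is a description here and carries no test. Of the 149 members, 56 passed the study's filter on low read numbers and entered tests on single circRNAs, and 93 did not. All 149 entered the sums per host.

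RNA was taken from 5 areas of the cerebral cortex, namely prefrontal (PFC), posterior cingulate (PCC), temporal (TC), parietal (PC) and occipital (OC), from CA1 and the dentate gyrus (DG) of the hippocampus, and from the cortex of the cerebellum (CB). The animals were healthy, socially housed monkeys of 10 or 20 years and both sexes that received no treatment under comparison, and before library preparation the RNA of 2 animals of the same sex and age was mixed. Each region thus has 4 libraries, the pools 10F, 10M, 20F and 20M, and the 32 libraries go back to 8 animals in 4 pools. Much of the messenger RNA was taken out of total RNA with oligo dT, and ribosomal RNA was depleted. The remaining RNA was digested with RNase R, an exonuclease that removes linear RNA and leaves circles. A comparison of ages or sexes rests on 2 pools against 2 pools, so that the differences between single animals and those between groups cannot be told apart, and p-values over libraries measure the spread between libraries that share animals.

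CircRNAs are closed RNA circles made when a splice donor is joined to an acceptor that lies upstream of it, and they are counted by the reads that cross this back-splice junction. Diacylglycerol kinases phosphorylate the membrane lipid diacylglycerol to phosphatidic acid, which ends diacylglycerol signals that start at phospholipase C and reach protein kinase C, RasGRP and chimaerin proteins. DGKB and DGKG are type I enzymes, with calcium-binding EF hands. DGKD and DGKH are type II enzymes, with a pleckstrin homology domain. DGKI is a type IV enzyme, with ankyrin repeats and a stretch that resembles the MARCKS phosphorylation site, and DGKB and DGKI are known as neuronal forms. The circRNAs measured here need not follow the messenger RNA or the enzyme of their host, which were not measured in these libraries.

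Depth set the precision. The libraries held between 18813 and 894932 back-splice reads, and 1 read was worth between 0.288 and 18.7 TPM, the authors' unit. The 10F cerebellar library was the shallowest, and all 4 cerebellar libraries together held 6.80% of the reads. Among the markers of cerebellar neurons, 7 of 14 hosted circRNAs, and their summed level was 317 to 786 TPM in CB against 0 to 158 TPM in the 28 other libraries, with ZIC1 at 0 in CB. Of the markers of forebrain excitatory neurons, CUX2 was called lower in CB by limma, at a mean of 12.1 TPM against 198 TPM elsewhere. SLC17A7 and RORB were at 0 in CB and at means of 3.67 and 5.23 TPM elsewhere, and SV2B was at 23.2 TPM in CB and 3.01 TPM elsewhere, none of these 3 called. The astrocyte markers stood at 0 TPM in all 4 CB libraries and at 0 to 34.5 TPM elsewhere. Of the cerebellar markers limma called 2 of the 4 that could be tested, both higher in CB, and of the astrocyte markers 0 of 1. ITPR1, a tested cerebellar marker, was not called and went the other way (log2 difference in CB -0.725, adjusted p = 0.694 by limma). The part of these cell types in the results was not tested. In such tissue samples, fewer cells of a type and less RNA per cell cannot be told apart.

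The members made up 0.210% of all back-splice reads, 15043 reads in all. The median genomic span between the joined ends was 29693 bases, introns included, against 6292 bases over all 41015 circRNAs with a host symbol. By host the median was 34926 bases in DGKI, 37301 in DGKB, 20843.5 in DGKG, 8016 in DGKH and 2302 in DGKD. The wide spans thus did not hold for DGKD, and the DGKH median was near that of all circRNAs. Over hosts with at least 10 circRNAs the median of the host medians was 9904.25 bases. Of the members, 120 were annotated as exonic and 29 as intronic (19.5%, against 16.3% over all circRNAs with a host). A share of 49.0% was found in 1 library only, against 53.1% over all. Single circRNAs are named below by their span, and positions are those of the deposited table, whose genome build is not given in the sources used here.

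DGKI, on the minus strand of chr3 (gene ENSMMUG00000016831), gave 80 circRNAs and 7472 reads between chr3:174894089-175321099. It ranked at place 1 of 8047 hosts by number of circRNAs but at place 130 by reads. The reads were spread over many junctions: its leading circRNA took 14.9% of them, and 5 circRNAs were needed to reach at least 50% of them. The effective number of circRNAs, the inverse of the summed squared shares of the reads, was 14.7 for DGKI. Over the 1204 hosts with at least 10 circRNAs the median effective number was 3.74. In all, 79 of the 80 shared at least 1 of their ends with another DGKI circRNA (98.8%), where the median of those 1204 hosts was 90.0%. The effective number cannot exceed the number of circRNAs, the value that chose the group, and the sharing of ends can rise with that number. Both are thus descriptions and not separate traits of DGKI. The acceptor at position 175185560 was used by 6 circRNAs that held 27.2% of the reads of the host, and 35 of the 80 circRNAs were seen in a single library.

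The 3 leading DGKI circRNAs were the 44150-base circDGKI (chr3:175141411-175185560, 1112 reads, found in 25 libraries), the 11130-base circDGKI (chr3:175141411-175152540, 925 reads, 23 libraries) and the 37279-base circDGKI (chr3:174977462-175014740, 705 reads, 21 libraries). The first and the second share a donor at 175141411 and differ in the acceptor. The widest DGKI circle, of 184218 bases, was seen with 17 reads in 1 library.

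DGKB, on the plus strand of chr3 (gene ENSMMUG00000020418), gave 39 circRNAs and 5852 reads between chr3:111386928-111936040, including 2 circRNAs with 10 reads on the opposite strand. Here few junctions took most of the reads. The 59920-base circDGKB (chr3:111445076-111504995) alone held 2684 reads, or 45.9% of the host, and was found in 29 of 32 libraries. The donor at 111504995 was used by 5 circRNAs with 74.1% of the reads, and the effective number of circRNAs was 3.85. The 24310-base circDGKB (chr3:111480686-111504995, 1051 reads) and the 24313-base circDGKB (chr3:111480683-111504995, 484 reads) end at the same donor, and their acceptors lie 3 bases apart. The 99725-base circDGKB (chr3:111445076-111544800) had 507 reads. The widest, the 194274-base circDGKB (chr3:111445076-111639349), had 181 reads in 8 libraries.

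**Figure D1:**
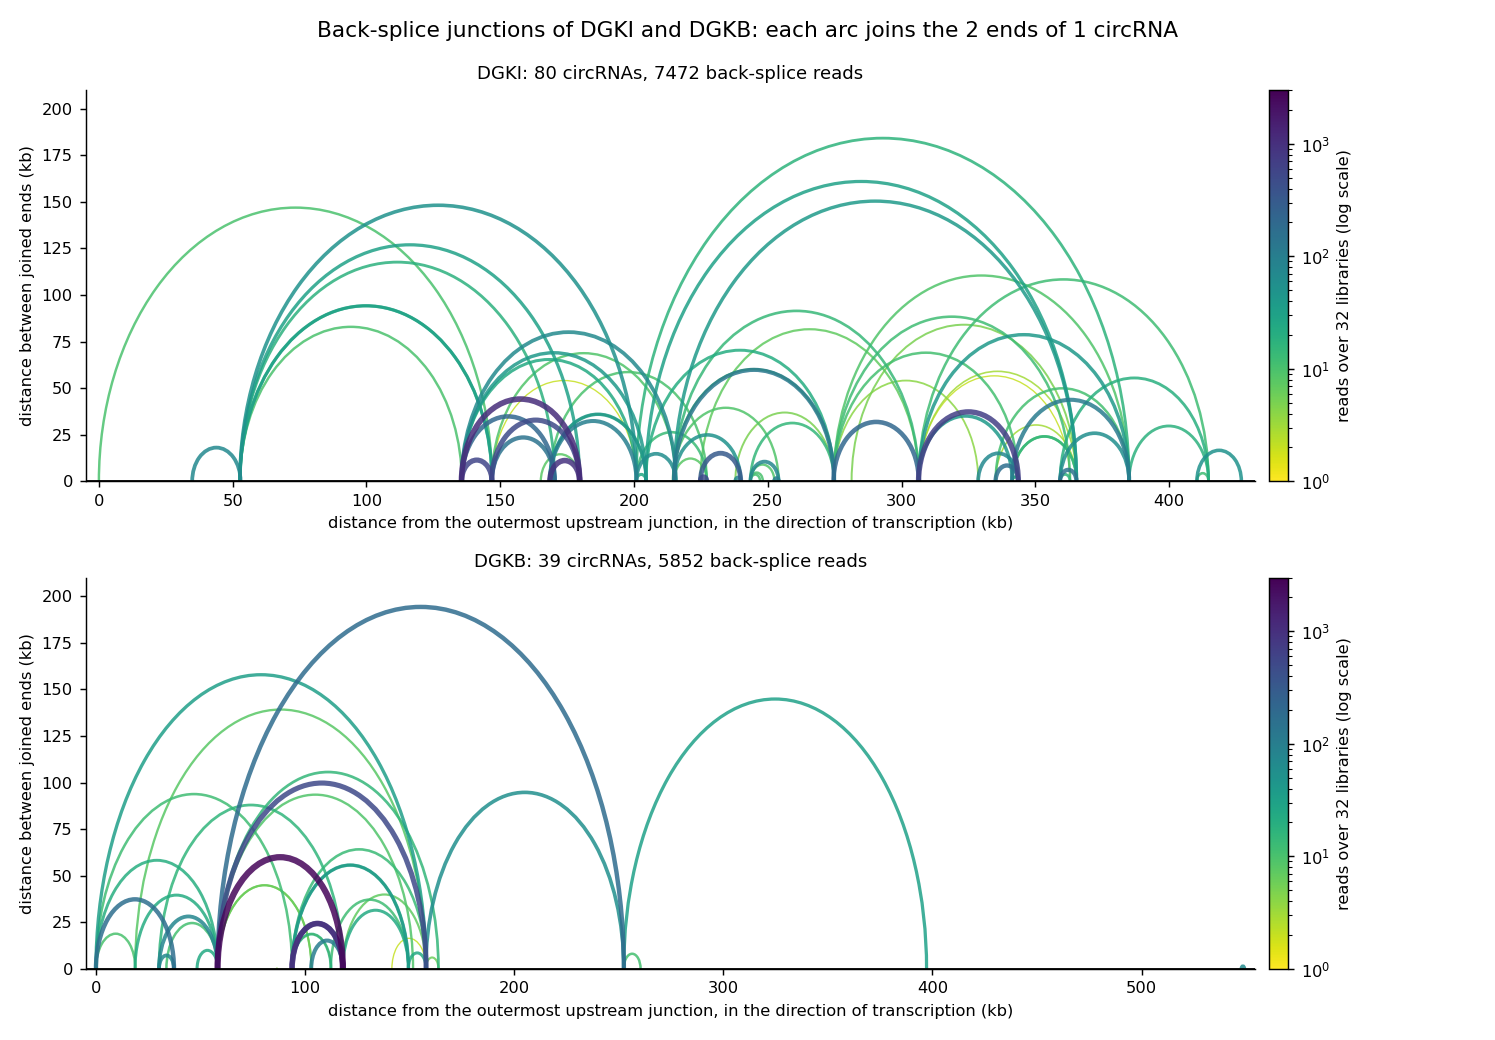
Back-splice junctions of DGKI (top) and DGKB (bottom). The x axis gives the distance in kb from the outermost upstream junction of the host, each arc joins the ends of 1 circRNA, its height is the distance between them in kb, and its colour and width give the reads over 32 libraries on a log scale. DGKI shows 80 arcs that share many ends with reads spread among them, while in DGKB the arcs ending at 1 donor hold 74.1% of the reads.

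DGKG, on chr2 (gene ENSMMUG00000021972), gave 18 circRNAs and 1223 reads, of which the 178-base circDGKG (chr2:100441797-100441974) held 950 reads, or 77.7%. Its effective number of circRNAs was 1.64. DGKD, on chr12 (gene ENSMMUG00000005646), gave 8 circRNAs and 420 reads, with 279 of them in the 2242-base circDGKD (chr12:97277005-97279246). DGKH, on chr17 (gene ENSMMUG00000023076), gave 4 circRNAs and 76 reads, found in 8 libraries, and its 9687-base circle (chr17:21159199-21168885) had 38 of these. The 4 DGKH circRNAs shared no end with one another. Among the other kinases of the family, DGKA and DGKE each had 2 circRNAs, and DGKZ, DGKQ and DGKK had none in the table used here.

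The regional comparison asked where in the brain the circRNAs of each kinase were found and at which level. The summed circRNA level of DGKI in the pools 10F, 10M, 20F and 20M was 220, 273, 261 and 600 TPM in TC. It was 266, 225, 417 and 317 TPM in PC, and 239, 283, 285 and 184 TPM in PCC. These 3 cortical areas had the highest means, of 338 ± 176, 306 ± 82.7 and 248 ± 47.6 TPM (SD, n = 4), and the highest TC value came from the 20M pool alone. PFC gave 232, 235, 302 and 175 TPM, and OC 247, 127, 143 and 287 TPM. CA1 gave 97.5, 276, 251 and 165 TPM, and DG 174, 304, 123 and 80.8 TPM. CB came last, with 131, 67.6, 57.6 and 70.4 TPM and a mean of 81.7 ± 33.4 TPM.

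Neighbours in the regional order of DGKI (TC, PC, PCC, PFC, OC, CA1, DG, CB) overlapped in every case. The last step, from DG to CB, had an exact permutation p of 0.0857, where 4 against 4 libraries cannot go below 0.0286. In all, 32 such steps were tested over the 5 hosts. Against the 28 libraries of the other regions together (lowest 80.8, median 243, highest 600 TPM), 24 of the 28 lay above the highest CB library. Within the pools 10M, 20F and 20M all 7 other regions were above CB, and within 10F, whose CB library held 7 DGKI reads, 6 of 7 were.

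DGKB fell further. Its summed level in the 4 pools was 279, 530, 272 and 287 TPM in TC and 282, 307, 325 and 207 TPM in PFC. It was 213, 182, 240 and 181 TPM in PC, and 213, 269, 75.4 and 165 TPM in CA1. TC and PFC had the highest means, of 342 ± 125 and 280 ± 52.0 TPM (SD, n = 4), and their ranges overlapped. PCC gave 177, 73.7, 178 and 220 TPM, and DG 138, 250, 73.9 and 144 TPM. OC gave 115, 70.4, 57.0 and 81.0 TPM, and CB gave 0, 45.1, 6.52 and 35.2 TPM. All 28 libraries of the other regions were above the highest CB library, and the range of OC, the next lowest region, did not overlap that of CB (exact permutation p = 0.0286, the smallest that 4 against 4 can give).

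Among all 5089 host sums, limma called 305 different between CB and the other 7 regions at a Benjamini-Hochberg adjusted p under 0.05, that is 5.99%, with 2.55% lower and 3.44% higher in CB. DGKB and DGKI were among the lower ones. On the log2(TPM + 2.455) scale DGKB was lower in CB by 3.65 (log2 difference -3.65, SE 0.50, adjusted p = 8.03e-06 by limma). DGKI had a log2 difference of -1.498 (SE 0.40, adjusted p = 0.0216 by limma). The DGKI call was lost without the 10M, the 20F or the 20M pool (adjusted p 0.0903 to 0.1515) and with a pseudocount of 1 TPM (adjusted p = 0.0728), and its adjusted p ranged from 0.00418 to 0.189 over all alternatives. The exact permutation test on TPM gave p = 0.00261 for DGKB and 0.00737 for DGKI, which are 0.0723 and 0.130 after adjustment over all hosts. By this test no member was called in CB after adjustment, while 143 of all 5089 hosts (2.81%) and 136 of 17050 circRNAs (0.798%) were. An unadjusted p under 0.05 was reached by 4 of 5 member hosts (15.9% of all hosts) and by 5 of 56 member circRNAs (8.87% of all circRNAs). As pooled RPM, the back-splice reads of a region group scaled to a common total, DGKI had 281 in CB (137 reads, 95% Poisson interval 236 to 333) against 1099 elsewhere (1074 to 1125), and DGKB 107 (52 reads, 79.8 to 140) against 869 (847 to 892). These intervals cover counting error only, since copies made by PCR are not independent molecules.

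DGKG went the other way in the mean, without passing the test. Its level in CB was 449, 16.5, 70.6 and 96.7 TPM, and the highest of these rested on 24 reads of the shallowest library. DG gave 24.1, 105, 39.0 and 147 TPM and TC 100, 51.5, 31.8 and 85.5 TPM, while PFC, PC and OC had means of 18.9 ± 15.6, 17.4 ± 19.4 and 10.7 ± 13.1 TPM (SD, n = 4). The CB range covered the whole range of DG. The log2 difference between CB and the other regions was 1.93 (SE 0.77, adjusted p = 0.162 by limma), and it was 1.04 without the 10F cerebellar library (adjusted p = 0.666). The exact permutation p moved from 0.0189 to 0.294 when that library was left out.

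DGKD was found in all 4 CB libraries, at 37.4, 24.05, 25.0 and 21.98 TPM, and in 17 of the 28 others (lowest 0, median 10.965, highest 42.2 TPM). Its log2 difference was 1.76 (SE 0.82, adjusted p = 0.259 by limma). DGKH was listed at 0 in all libraries of PCC, PC, CA1 and CB. It was seen in 3 of 4 TC libraries, at 30.9, 29.5 and 4.35 TPM, in 2 of 4 libraries each of PFC and OC, and in 1 of DG. No DGKH read was listed among 486881 CB reads, against 11.4 RPM elsewhere (76 reads). A floor of 3 reads over the group is 6.16 RPM, or 1.85-fold lower than elsewhere. Since junctions of fewer than 2 reads in a library were not kept, this fold is not a lower bound. With 20 of the 28 other libraries also at 0, limma gave a log2 difference of -0.67 (SE 0.54, adjusted p = 0.613), so that a difference of DGKH in CB was not detectable over libraries.

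**Figure D2:**
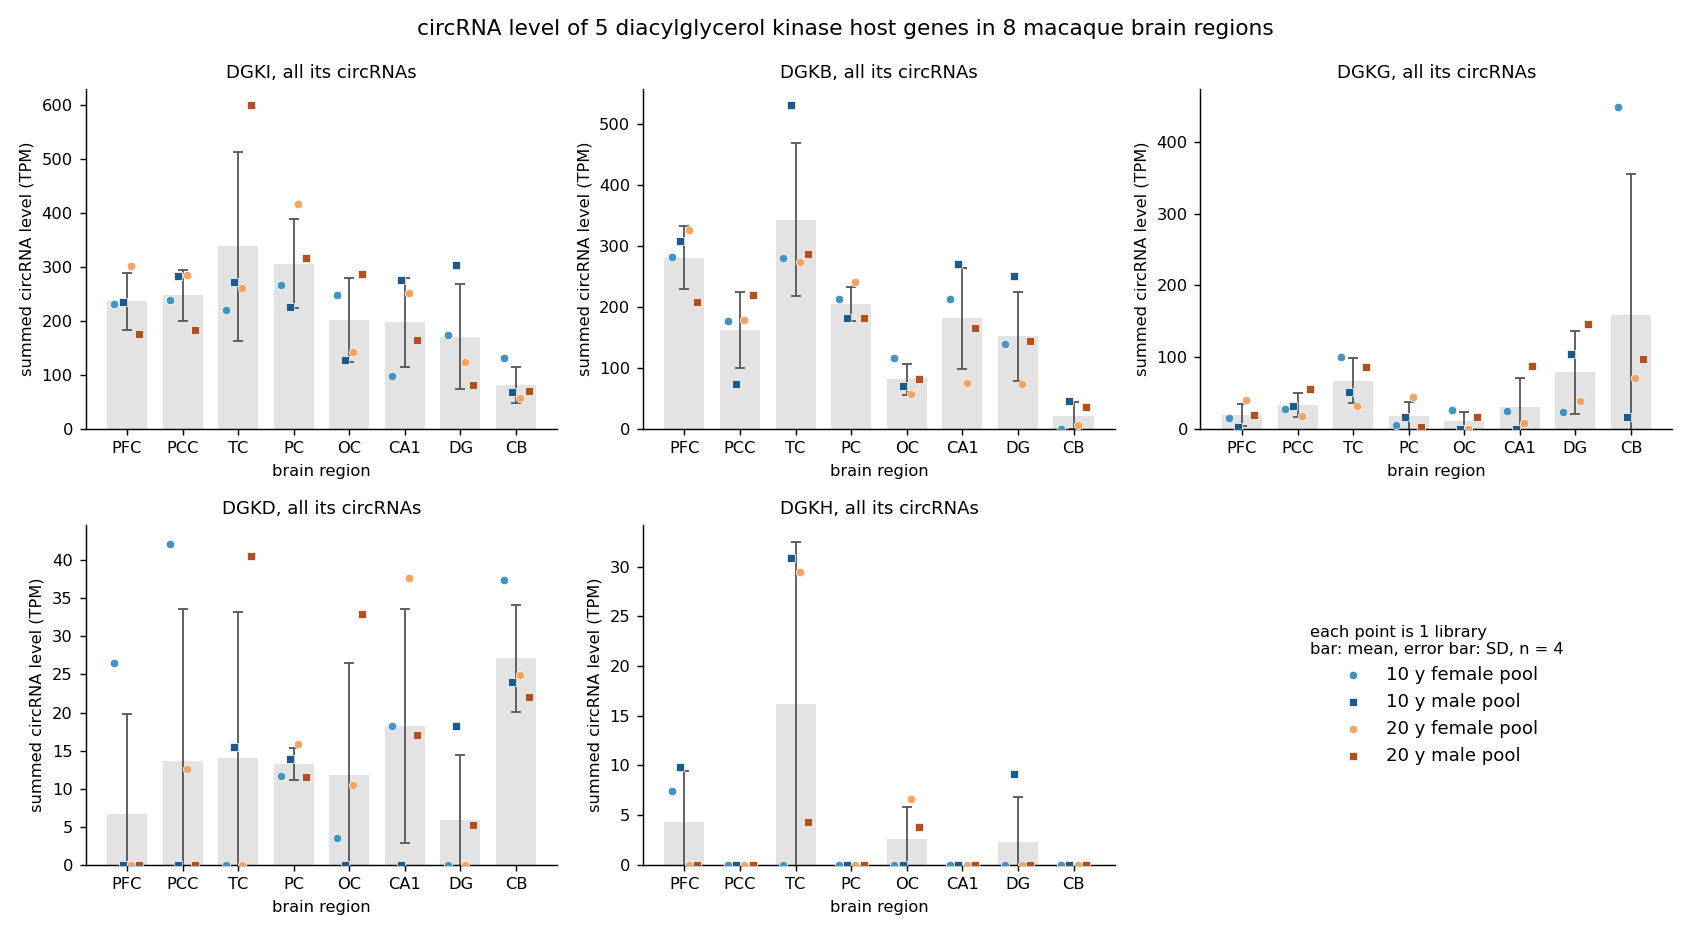
Summed circRNA level in TPM (y axis, each panel with its own scale) of the 5 hosts in the 8 regions (x axis). Points are single libraries coloured by pool, bars are means and error bars SD over 4 libraries, cut at 0. DGKB lies at 0 to 45.1 TPM in CB and at 56.95 TPM or above in every other library, while the high CB mean of DGKG comes from the 10F library at 449 TPM.

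Over all 8 regions, limma's F-test called 207 of 5089 host sums (4.07%), and DGKB was the 1 member called (adjusted p = 0.000641). DGKI had an adjusted p of 0.197, DGKG 0.155, DGKH 0.280 and DGKD 0.658 in the same F-test by limma. None of the 5 hosts passed in the contrast of any of the other 7 regions with the rest, in which limma called 0.177% of all hosts for PFC, 0.0786% for PCC, 0.0983% for TC, 0.0590% for PC, 0.0197% for OC, 0.0983% for CA1 and 1.08% for DG. For TC, limma gave DGKB a log2 difference of 1.55 (SE 0.50, adjusted p = 0.297) and DGKH 1.88 (SE 0.54, adjusted p = 0.177). An unadjusted p under 0.05 was reached there by 2 of 5 hosts, and by 8.04% of all hosts. DGKB in PFC (log2 difference 1.27, SE 0.50, adjusted p = 0.541, with 7.02% of all hosts under 0.05 unadjusted) and DGKG in OC (-2.13, SE 0.77, adjusted p = 0.785, with 4.48%) were the others under 0.05 before adjustment by limma.

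The same comparison was made for single circRNAs. The F-test by limma over the regions called 322 of 17050 circRNAs (1.89%), and 4 of the 56 members tested were among them. These were the 24310-base circDGKB (adjusted p = 0.00026), the 44150-base circDGKI (adjusted p = 0.0143), the 194274-base circDGKB (adjusted p = 0.0284) and the 59920-base circDGKB (adjusted p = 0.0318). Of these 4 calls, that of the 24310-base circDGKB held in 14 of 15 alternatives, that of the 44150-base circDGKI in 11 of 15, that of the 194274-base circDGKB in 8 of 14 and that of the 59920-base circDGKB in 4 of 15. The call of the 44150-base circDGKI was lost without any 1 of the 4 pools (adjusted p 0.0826 to 0.280 by limma).

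The 44150-base circDGKI, the leading circle of its host, was at 0 in all 4 CB libraries, and it was above 0 in 25 of the 28 others (lowest 0, median 33.9, highest 86.3 TPM). Its level in the 4 pools was 37.2, 71.6, 39.1 and 25.2 TPM in PFC, 35.1, 38.3, 77.3 and 29.5 TPM in PCC, 15.7, 51.5, 75.5 and 71.0 TPM in TC and 58.3, 24.1, 55.3 and 58.7 TPM in PC. OC gave 0, 27.95, 0 and 30.8 TPM, CA1 27.4, 32.7, 16.8 and 0 TPM, and DG 84.2, 86.3, 8.21 and 11.4 TPM. The libraries at 0 outside the cerebellum were thus 10F and 20F of OC and 20M of CA1. The last of these held 811958 reads, more than the 486881 of all 4 CB libraries together. A pooled fold for this circle therefore does not cover the spread between libraries. In CB the fitted log2 difference from the other regions was -3.59 (SE 0.64, adjusted p = 0.00105 by limma), in a contrast that called 2.73% of all circRNAs, 0.727% lower and 2.00% higher. Over pooled reads, 0 of 486881 were listed in CB against 167 RPM elsewhere, 27.0-fold above a floor of 3 reads over the group. Since junctions of fewer than 2 reads in a library were not kept, this fold is not a lower bound. Without the 10M pool the adjusted p by limma was 0.0585, and the exact permutation p of 0.00539 became 0.200 after adjustment over all circRNAs.

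Other DGKI circles were found in CB. The 11130-base circDGKI, which uses the same donor, was at 0, 19.5, 15.2 and 33.0 TPM in CB and made up 30.7% of the CB reads of the host (42 of 137 reads, 95% Wilson interval 23.6 to 38.8%). Outside CB it was above 0 in 20 of 28 libraries (median 24.7, highest 130 TPM), and its log2 difference in CB was -0.53 (SE 1.12, adjusted p = 0.864 by limma). In CB, 14 different DGKI circRNAs were found, 2 of them nowhere else. These 2 were each seen in the 20F library alone, with 11 and 8 reads. Of all circRNAs with a host symbol, 53.1% were found in 1 library only, so the 2 are a description.

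For DGKB, 2 of 14 tested circRNAs were called lower in CB. The 59920-base circDGKB was at 0, 45.1, 0 and 26.4 TPM in CB and at a median of 95.6 TPM in the other 28 libraries (lowest 0, highest 329 TPM), with 22 of 28 above the highest CB library. Its log2 difference was -3.06 (SE 0.63, adjusted p = 0.00402 by limma). That call was lost without the 10F cerebellar library (log2 difference -2.33, adjusted p = 0.0601) and without the 10F or 20F pool (adjusted p 0.183 and 0.059). The 24310-base circDGKB was at 0 in all 4 CB libraries, with 0 reads listed there against 158 RPM elsewhere. That is 25.6-fold above a floor of 3 reads over the group. It is not a lower bound, since junctions of fewer than 2 reads in a library were not kept. The 20F library of PCC, with 894932 reads, also listed none of this circle, so the fold does not cover the spread between libraries. The log2 difference of this circle was -2.68 (SE 0.56, adjusted p = 0.0049 by limma). Without the 10F or the 10M pool its adjusted p was 0.0625 and 0.112.

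The 24310-base circDGKB had unlike levels in the areas of the cerebral cortex. It stood at 52.1, 79.7, 114 and 50.9 TPM in PFC and at 59.0, 79.6, 52.5 and 39.6 TPM in PC. TC gave 26.7, 30.9, 5.90 and 40.6 TPM, and OC 14.8, 10.4, 19.9 and 1.62 TPM. In PCC it was at 0 in all 4 libraries, although the summed level of DGKB there, 162 ± 62.2 TPM, was between those of CA1 and DG. In PFC the log2 difference from the other regions was 2.90 (SE 0.56, adjusted p = 0.023 by limma), and 0.158% of all circRNAs were called in this contrast, 0.123% higher. In PC it was 2.54 (SE 0.56, adjusted p = 0.0354 by limma), where 0.393% of all were called, 0.375% higher. In PCC it was -2.68, as in CB (SE 0.56, adjusted p = 0.0551 by limma), which did not pass. The PFC call held in 9 of 16 alternatives and the PC call in 6 of 16, and the exact permutation p of 0.000556 and 0.0159 became 0.984 and 0.569 after adjustment over all circRNAs.

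The 194274-base circDGKB was the 1 other circle called in PFC. It stood at 4.96, 21.4, 59.5 and 13.1 TPM there, and it was above 0 in only 4 of the 28 other libraries, at most 12.97 TPM. The ranges overlapped, because 1 TC library and 1 PCC library were above the lowest PFC library. The log2 difference was 2.78 (SE 0.45, adjusted p = 0.00499 by limma), and it was lost without the 10M pool (adjusted p = 0.153). The exact permutation p was 0.000111, or 0.593 after adjustment over all circRNAs, a setting in which no circRNA passed for PFC (0%) and 4.50% had an unadjusted p under 0.05.

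In PCC, TC, OC, CA1 and DG limma called no member circRNA, with 0.0938%, 0.223%, 0.199%, 0.0938% and 0.194% of all circRNAs called. An unadjusted p under 0.05 was reached by 2, 7, 5, 7 and 5 of the 56 members in these regions, against 8.94%, 5.51%, 4.40%, 8.70% and 6.22% of all circRNAs. Of these, all 7 in TC and all 7 in CA1 were higher there. So were 1 of 2 in PCC, 2 of 5 in OC and 1 of 5 in DG. The shares of all circRNAs cover both directions, so the directions of the members are a description.

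**Figure D3:**
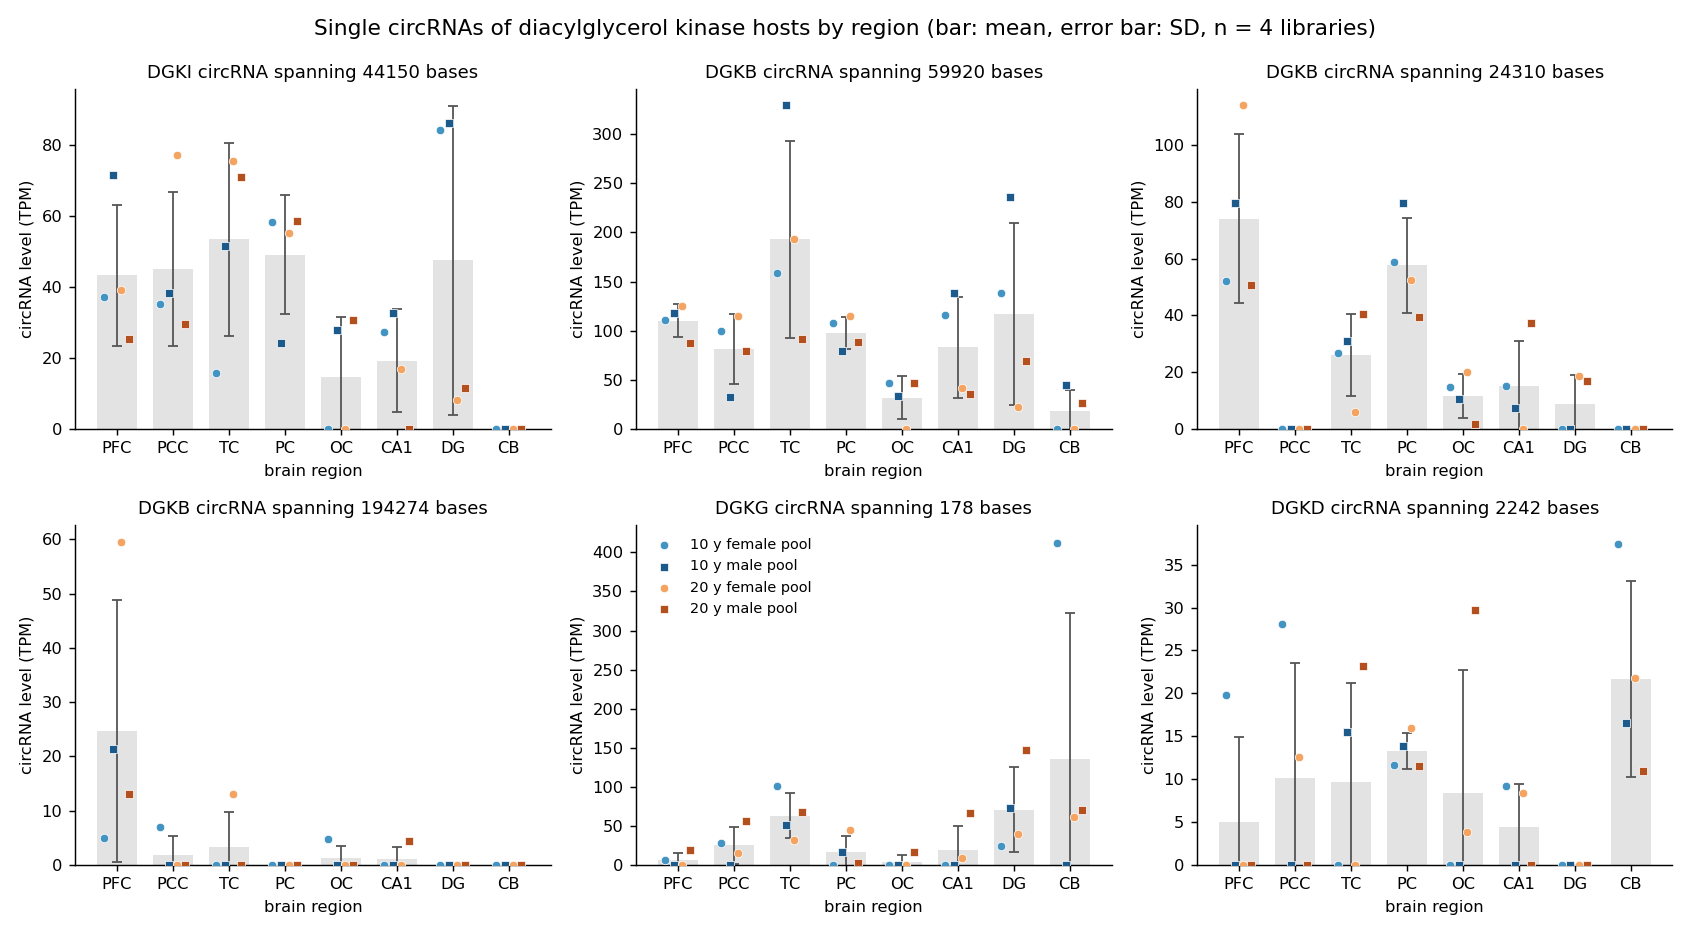
Level in TPM (y axis, each panel with its own scale) of 6 single circRNAs in the 8 regions (x axis), named by host and span. Points are libraries by pool, bars are means and error bars SD over 4 libraries, cut at 0. The 44150-base circDGKI is at 0 in all CB libraries, and the 24310-base circDGKB is at 0 in all PCC and CB libraries and at 39.6 TPM or above in PFC and PC.

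Both DGKB circles that end at the donor 111504995 and start 3 bases apart were read side by side, a pair chosen after its values were seen. Either of them was found in 24 libraries and both in 15. Of their reads, 68.5% belonged to the acceptor at 111480686. This share was 85.8% in PFC (442 of 515 reads, 95% Wilson interval 82.5 to 88.6%) and 72.5% in PC (330 of 455, 68.3 to 76.4%). It was 50.9% in TC (56 of 110 reads), 46.5% in OC (59 of 127) and 50.7% in CA1 (136 of 268). The CA1 share rested on the 20M library, without which it was 17.1% (7 of 41). In PCC it was 0 of 32 reads, found in 2 libraries, and in DG 28 of 28 reads, also in 2 libraries, so that the 24313-base circle was present in PCC where the 24310-base circle was not seen. Single libraries scattered widely: in the 14 libraries with at least 20 reads of both together the share ran from 9.09% to 100% with a median of 61.6%. The part of the alignment in this split was not tested. No test was made on these shares.

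The make-up of the reads of each host also differed between regions in description. Many of these shares rested on 1 library, and values without it, an alternative chosen after the data were seen, stand beside them. The 44150-base circDGKI took 19.0% of the DGKI reads in PFC and 23.9% in PCC (300 of 1254 reads, 95% Wilson interval 21.6 to 26.4%), the latter being 14.6% without the 20F library (47 of 322). It took 2.97% in CA1 (22 of 740 reads), but 13.1% without the 20M library (22 of 168), which held most of the DGKI reads there and none of this circle. In OC it took 6.86%, which was 3.90% without the 20M and 10.4% without the 10F library. The 37279-base circDGKI took 14.9% in PCC and 2.26% in PC, the latter being 0.388% without the 20F library. The 99725-base circDGKB took 21.8% of the DGKB reads in PCC (174 of 800), of which the 20F library held most (11.9% without it, 26 of 218), and 1.16% in PC (0.506% without the 10F library). In CB, 80.8% of the 52 DGKB reads came from the 59920-base circle. The 178-base circDGKG took 206 of 213 DGKG reads in DG, and its level in CB was 412, 0, 60.8 and 70.4 TPM. In OC all its 30 of 75 reads came from the 20M library, and in CA1 2 of 10 reads of the host were left to it without the 20M library, against 230 of 316 with it. Among the DGKD circles, the 2242-base one took all 73 reads in PC and 5 of 74 in CA1, where the 26387-base circDGKD (chr12:97277005-97303391), annotated as intronic and with the same acceptor, took 59. All 59 came from the 20M library of CA1, without which the 2242-base circle took 5 of 15 reads and the 26387-base circle none. These shares pool 4 libraries, and reads of 1 library are not independent samples of a region.

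**Figure D4:**
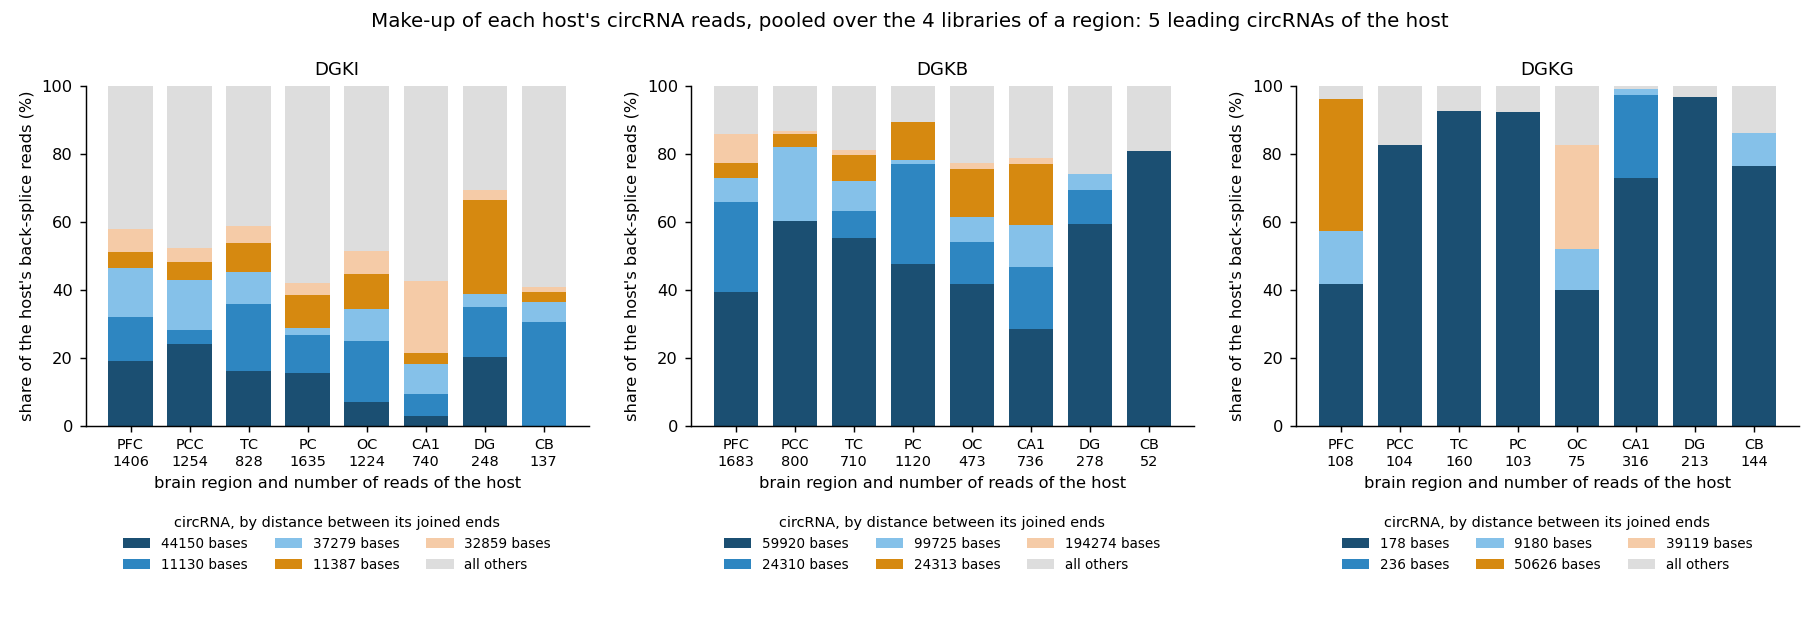
Share in % (y axis) of the back-splice reads of DGKI, DGKB and DGKG that belong to the 5 leading circRNAs of the host, pooled over the 4 libraries of each region (x axis, with the number of reads). The 59920-base circle leads DGKB in all regions, and its 24310-base circle takes 26.3% in PFC, 29.5% in PC and 0 in PCC and CB.

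How many different DGKI circRNAs a library showed was lowest in the shallowest library but did not rise with depth throughout. The shallowest library, 10F of CB, showed 1, and the 10F library of OC showed 24. Libraries were drawn down to an equal depth of 18813 reads of all circRNAs, and circles with at least 2 drawn reads were counted. The expected number was 6.35 ± 2.11 in TC, 6.07 ± 1.64 in PC, 5.18 ± 1.09 in PFC and 5.14 ± 1.30 in OC (SD, n = 4). It was 4.73 ± 0.52 in PCC, 3.86 ± 1.25 in CA1, 3.16 ± 1.49 in DG and 1.21 ± 0.17 in CB. For DGKB the highest was 4.46 ± 0.74 in PFC and the lowest 0.43 ± 0.42 in CB. The depth was made equal over all circRNAs and not over those of the host. A lower level of the host therefore lowers this number by itself. The deepest library, 20F of PCC, showed 13 DGKI circRNAs at 894932 reads, and the next, 20M of CA1, showed 10 at 811958 reads. Other deep libraries with few were 10M of PC with 9 at 430956 reads, 20F of PFC with 6 at 364927 reads and 20M of DG with 4 at 273137 reads. These are the 5 libraries with the highest share of clean reads in the study's sample table, a grouping made here. These 5 held 55.9 to 141 reads per circRNA, against 8.24 to 43.7 in the other 27. As the number of circRNAs chose the group, these values are a description.

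**Figure D5:**
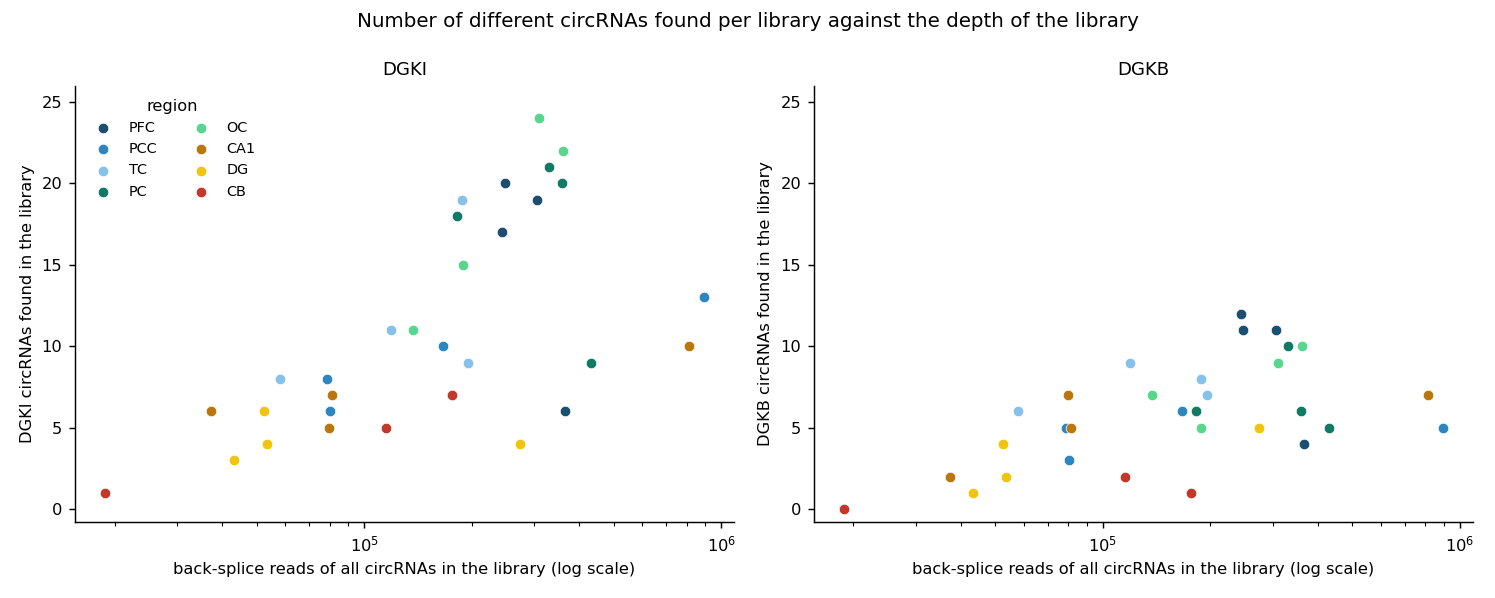
Number of different DGKI (left) and DGKB (right) circRNAs found in a library (y axis) against the back-splice reads of all circRNAs in that library (x axis, log scale), 1 point per library, coloured by region. The count of DGKI circRNAs runs from 1 in the shallowest library to 24, and CB libraries lie low for their depth in both panels.

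Age was the second question of the design. The summed DGKI level was 212 ± 71.5 TPM at 10 years (SD, n = 16, lowest 67.6, median 233, highest 304) and 232 ± 141 TPM at 20 years (n = 16, lowest 57.6, median 218, highest 600). The range at 20 years contained that at 10 years, and the log2 difference of 20 against 10 years was -0.02 (SE 0.27, adjusted p = 0.999 by limma). DGKB was at 197 ± 129 TPM at 10 years and 159 ± 96.6 TPM at 20 years (log2 difference -0.17, SE 0.33, adjusted p = 0.962 by limma). DGKG was at 56.1 ± 109 TPM at 10 years and 47.6 ± 40.7 TPM at 20 years, with a log2 difference of the opposite sign, 0.47 (SE 0.51, adjusted p = 0.898 by limma). The highest 10-year value was that of the 10F cerebellar library. DGKD and DGKH had log2 differences of 0.19 (SE 0.54) and -0.12 (SE 0.36).

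No host of the whole table was called for age by limma (0%), and 6.33% had an unadjusted p under 0.05, none of them a member. Among single circRNAs 5 of 17050 were called (0.0293%) and no member was. An unadjusted p under 0.05 was reached by 5 of 56 members, 4 higher and 1 lower at 20 years, where 5.26% of all circRNAs reached it. These members included the 37279-base circDGKI (log2 difference 1.07, SE 0.50, adjusted p = 0.81 by limma) and the 178-base circDGKG (1.24, SE 0.60, adjusted p = 0.81 by limma).

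Sex was compared in the same way. Males had 229 ± 130 TPM and females 215 ± 90.2 TPM of DGKI (n = 16 each), with a log2 difference of 0.01 (SE 0.27, adjusted p = 0.998 by limma). For DGKB the values were 191 ± 126 TPM in males and 165 ± 103 TPM in females (0.52, SE 0.33, adjusted p = 0.838 by limma). No host (0%) and no circRNA (0%) of the table was called by limma. An unadjusted p under 0.05 was reached by none of the 5 member hosts (6.66% of all hosts) and by 2 of 56 member circRNAs (5.31% of all circRNAs). The age difference was compared between the sexes by an interaction term. Here each sex at each age is 1 pool, so the p-values measure only the spread between libraries of the same animals. By this term limma called 3 of 5089 hosts (0.0590%) and 8 of 17050 circRNAs (0.0469%), none of them a member. Before adjustment, p was under 0.05 for 1 of 5 member hosts (6.35% of all hosts) and 4 of 56 member circRNAs (5.41% of all).

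The genes around the kinases in diacylglycerol signalling were read from a list of 65 symbols, of which 42 hosted circRNAs and 34 could be tested. Between CB and the other regions 5 of 34 were called by limma, 2 higher and 3 lower, against 5.99% of all hosts, and the median log2 difference was -0.29 against 0.02 over all hosts. All but 1 were effectors that bind diacylglycerol. CHN1 and CHN2, which encode the Rac-inactivating proteins alpha- and beta-chimaerin, moved in opposite directions: CHN1 was at 0 in all CB libraries and at 44.7 ± 30.1 TPM elsewhere, and CHN2 at 67.3 ± 30.5 TPM in CB (n = 4) and 2.48 ± 5.07 TPM elsewhere. RASGRP1, a Ras activator, was at 0.753 ± 1.505 TPM in CB against 64.3 ± 60.9 TPM, and PRKCA, a protein kinase C, at 3.55 ± 4.12 against 50.3 ± 40.8 TPM. PLCB4, a phospholipase C that makes diacylglycerol, was at 44.0 ± 34.3 TPM in CB against 7.79 ± 10.2 TPM (log2 difference 2.45, SE 0.72, adjusted p = 0.0403 by limma). Its call was lost when all libraries were scaled to the same total (adjusted p = 0.0751 by limma). It was also lost with size factors (adjusted p = 0.0502 by limma) and with voom on recovered reads (adjusted p = 0.142 by limma). Without the 10F cerebellar library the calls of PLCB4 and PRKCA were lost (adjusted p = 0.2 and 0.0623 by limma). Of the other lists, none of 9 enzymes that use diacylglycerol or phosphatidic acid, 2 IP3 receptors and 1 other diacylglycerol kinase was called in CB. None of the 34 was called for age or sex.

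The hosts whose level over the 32 libraries was most like that of DGKI were RAPGEF5, an exchange factor for Rap GTPases (Pearson r = 0.78, Spearman rho = 0.64), C6ORF142 (r = 0.78, rho = 0.65) and THRB, a thyroid hormone receptor (r = 0.76, rho = 0.62), among 2424 hosts compared on the log2 scale. For DGKB they were CSMD1 (r = 0.91, rho = 0.75), CELF2, an RNA-binding protein (r = 0.86, rho = 0.65), and RAPGEF5 (r = 0.85, rho = 0.73), which was thus named for both. RAPGEF5 was at a mean of 3.85 TPM in CB and 464 TPM elsewhere. DGKG was less like any other host, with PSPC1 leading (r = 0.59, rho = 0.54). For DGKH the leading host was SNAPC4 (r = 0.69, rho = 0.65), and for DGKD IPO7 (r = 0.65, rho = 0.62). Between the members, DGKI and DGKB had r = 0.59, which was 0.38 without the CB libraries, and DGKB and DGKG had r = -0.26, which was 0.31 without them. These libraries share animals, scale and depth, so the values are descriptions.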

How the data were processed

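Back-splice junctions of RNase R-treated brain RNA were measured in 32 libraries. As the authors describe, reads were trimmed with cutadapt, aligned with BWA, and searched for circRNAs with CIRI2, which kept junctions of at least 2 reads. The deposited values are TPM as the authors normalized them, while their methods name size factors, and neither a common total nor those factors gave the scale of the columns. In each library at least 99.98% of the values were whole multiples of 1 step (within 0.01 TPM), the smallest being 2 steps, and steps were taken as reads. Reads made by PCR copying are not independent, so intervals cover counting error only.

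The filter kept circRNAs with at least 3 reads in at least 2 libraries of each of at least 2 regions, or of 1 region with at least 6 libraries in all, or with at least 30 reads in total (17050 of 52828). Host sums add all circRNAs of a symbol and were tested where at least 4 libraries were above 0 (5089 hosts). Levels were fitted as log2(TPM + 2.455) with limma 3.58.1 in R 4.3.3 over all 32 libraries, with region, age and sex as terms, and p-values were adjusted by Benjamini-Hochberg over all features. The pseudocount understates the change of low circRNAs. The fits were also run on simulated reads drawn independently for each library. That run does not cover libraries that share animals. Single values were compared by two-sided exact permutation over libraries (100000 draws for age and sex) in SciPy 1.17.1.

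Libraries of 1 pool come from the same animals. Their deviations from the region means correlated weakly over hosts (median r per pool 0.0178 to 0.0266). Pairs of different pools were lower in each case (-0.0107 to -0.00674). Fits with the pool as a block were run as alternatives. Named circRNAs are the 3 with most reads of each host, those called by limma and the widest of each host. The members and gene lists were chosen with earlier results of these data known. Of the markers of forebrain excitatory neurons, 1 gene and the sum over that list are not reported here.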

Additional observations from a re-analysis of the deposited data

Results flagged for a closer look

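Among 36 sets of 4 libraries (1 host in 1 region, not all at 0), 4 held a library whose gap to the nearest of the others exceeded the share of the range that Dixon's test allows at the 95% level. In 2 of these the other 3 libraries were all at 0, so that the gap is the whole range by construction. For sets without such ties chance gives about 1 in 20. The 20M library of TC stood at 600.05 TPM for DGKI, where the other 3 were between 220 and 273 TPM, and its gap was 0.861 of the range. The 10M library of TC stood at 530.01 TPM for DGKB, with the others between 272 and 287 TPM (0.944 of the range). The 10M library of DG, at 9.09 TPM, was the only DG library in which DGKH was above 0, and the 10F library of PFC, at 26.47 TPM, the only PFC library above 0 for DGKD. The DGKG difference between ages differed between the sexes, by 2.23 on the log2 scale (males minus females, SE 0.95, unadjusted p = 0.0268, adjusted p = 0.734 by limma over all hosts). The mean DGKG level was 84.1 TPM in the 10F, 28.02 in the 10M, 31.5 in the 20F and 63.8 in the 20M libraries (n = 8 each), and the 10F mean includes the cerebellar library at 449 TPM. Each of these groups is 1 pool, so this difference cannot be told apart from one between pools.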

How the results depend on the processing

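The counts of members called over regions moved with the settings. For the difference among regions, 4 circRNAs were called, which became 2 with a pseudocount of 0.2455 TPM in place of 2.455, 3 without the 10F cerebellar library and 1 to 2 when a pool was left out, and 1 host, which became 2 with voom on recovered reads. For each region against the rest, 6 calls of circRNAs became 3 with circRNAs above 0 in at least 16 libraries, 0 by the exact permutation test with adjustment, and 2 to 8 without 1 pool. The 2 host calls became 1 with a pseudocount of 0.2455 or 1 TPM, 0 by the adjusted exact permutation test, and 1 to 2 without 1 pool. With the pool as a replicate block the counts were 4, 6, 1 and 2, and the block changed no call. Of 23 host sums and named circRNAs, 9 had an exact permutation p under 0.05 in CB, against 15.9% of all hosts and 8.87% of all circRNAs. The 9 became 8 at equal totals and 4 without the 10F cerebellar library, a setting chosen after the data were seen. The 23 hold hosts beside their own circles, and some circles were named because limma called them, so the count is a description. In CB, the DGKB host sum was called in 15 of 16 alternatives, the DGKI host sum in 9, the 44150-base circDGKI in 14, the 24310-base circDGKB in 13 and the 59920-base circDGKB in 12, and the 194274-base circDGKB was called in PFC in 13 of 15. No member was called for age or sex in any of 24 alternatives.

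Log2 differences near 0 changed sign without passing the test. For DGKI and age (-0.02) the value was 0.11 at equal totals, 0.10 with size factors, 0.14 with voom, 0.14 without DG, 0.0509 without CB, 0.0426 without the 10F cerebellar library, -0.103 to 0.0546 without 1 pool, and 20.0 TPM in the unpaired comparison. For DGKI and sex (0.01) it was -0.0645 at equal totals, -0.0291 with size factors, -0.0198 with voom, -0.0928 without TC, -0.0482 without CA1 and -0.0658 to 0.0915 without 1 pool. For DGKB and age it was 0.0110 with a pseudocount of 0.2455 TPM. For DGKG it was -8.44 TPM in the unpaired comparison and -0.65 to 1.58 without 1 pool for age, and 0.0181 without CB and -1.35 to 0.87 without 1 pool for sex. The cause was not tested. The planned count tests of edgeR on recovered reads were not run, since the deposited unit is TPM. The 10F cerebellar library was the shallowest, with 1 read worth 18.7 TPM.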
